A study of Mus musculus with 6 samples.

Results

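The 39 Hox genes of mouse, in the 4 clusters Hoxa, Hoxb, Hoxc and Hoxd, were followed in expanded embryonic chondrocytes. They were taken from the deposited table by symbol, as every row whose name is Hox followed by a cluster letter and a number, and silent genes were kept. They made up 39 of the 35976 gene symbols in the table, with 11 genes in cluster A, 10 in B, 9 in C and 9 in D. The cells were chondrocytes, the matrix-producing cells of cartilage, from hind limb articular cartilage of embryos at day 18.5 on a C57BL/6 x 129S4/SvJae background. All cells had been expanded on plastic through 16 population doublings, with doxycycline at 2 µg/ml in the medium to induce a histone H3.3 transgene, which both groups carried. In the H3K9M group (replicates 1, 3 and 5) the transgene carried methionine at lysine 9, and methylation of that residue is described as suppressed. In the H3WT group (replicates 1, 2 and 4) it was wild-type H3.3. The labels do not say which promoter drives the transgene, or whether libraries of a group came from separate animals or cultures, so p-values measure the spread between these 6 libraries only.

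Hox genes encode homeodomain transcription factors that give cells of the embryo their position along the body and limb axes. Genes of one paralog number in different clusters are close relatives, and low numbers lie at the 3′ end of a cluster and act toward the head, high numbers at the 5′ end and toward the tail. In the limb, groups 9 and 10 pattern the upper segment, group 11 the middle segment and group 13 the hand or foot, and Hoxc10 and Hoxc11 mark the hind limb. Silent Hox genes are best known as targets of Polycomb repression through methylation of H3 lysine 27. Methylation of lysine 9, the residue mutated here, marks other silenced chromatin. The comparison asked which Hox transcripts differed when that methylation was suppressed.

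Libraries held 15113675 to 19606082 counts. Within a group, pairs of libraries had a chi-square of 28.3 to 122 per degree of freedom over genes, so none was a copy of another within sampling noise, which does not show that they came from separate animals or cultures. On the first principal component of all tested genes, with 35.5% of the variance, H3K9M replicate 3 (51) and H3WT replicate 2 (49.1) lay far from H3WT replicate 1 (-56.2) and replicate 4 (-51.5). The second component, with 28.8%, set the groups apart. H3K9M replicates 1, 3 and 5 lay at 38.4, 39.8 and 19, and H3WT replicates 1, 2 and 4 at -11.4, -71.5 and -14.4. All 10 chondrocyte markers were expressed, with summed levels of 7366, 7709 and 11476 CPM (counts scaled to library size, with TMM factors) in H3K9M replicates 1, 3 and 5 and 7249, 18846 and 13368 CPM in H3WT replicates 1, 2 and 4. Of these 10, 9 had a log2 fold change of H3K9M over H3WT below 0 (median -0.55), against 50.4% of all tested genes. Only 1, Col9a1 (-1.89), had an unadjusted p under 0.05 (edgeR), against 12.2% of all tested genes. The groups overlapped in all 10, while 19.4% of all tested genes had groups without overlap. The hind limb genes Pitx1 and Tbx4 were expressed in every library, at 220.0 to 310.5 CPM and 43.7 to 61.0 CPM, and Tbx5, the forelimb factor, at 13.3 to 22.0 CPM. Summed skeletal muscle markers stood at 152.3, 213.7 and 25.5 CPM in H3K9M replicates 1, 3 and 5 and at 13.2 to 31.3 CPM in H3WT. Of those 10 genes, Myf5 and Pax7 had 0 counts in every library, and Myod1 had 19.5, 57.0 and 4.29 CPM in H3K9M against 0, 1.04 and 0 CPM in H3WT replicates 1, 2 and 4. Macrophage and blood markers summed to 8.04 to 16.2 CPM against 3.84 to 6.29 CPM, with Ptprc and Adgre1 among 6 of 10 genes at 0 in all libraries, and endothelial markers to 1.12 to 1.30 against 1.35 to 2.28 CPM, with Cdh5 among 3 of 8 at 0. Keratinocyte markers summed to 11.9 to 25.6 CPM against 5.73 to 33.1 CPM and neural markers to 28.1 to 50.8 against 17.4 to 62.4 CPM. The part of these markers in the differences below was not tested, and in bulk RNA fewer cells of a type and less RNA per cell cannot be told apart.

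The most abundant Hox transcripts were Hoxa10, Hoxc10, Hoxc6, Hoxa11 and Hoxa9. To compare genes, CPM was divided by the length of the longest annotated transcript. Hoxa10 had 38.3 CPM per kb on average over the 6 libraries (31.9 to 48.6) and Hoxc10 38.1 (32.8 to 44.0), so on this scale their ranges overlapped. Hoxc6, a gene of the thoracic region, followed with 22.4 CPM per kb (19.6 to 24.9) and Hoxa11 with 20.9 (16.2 to 26.3), and their ranges also overlapped. Hoxa9 had 9.60 CPM per kb (7.05 to 12.4). The order rests on the length used. With the median annotated transcript in place of the longest, Hoxa10 (1573 in place of 2565 bases) had 62.4 CPM per kb (52.04 to 79.2), wholly above the others, Hoxc6 had 39.4 (34.6 to 43.9), Hoxc10 38.1 and Hoxa9 36.4 (26.7 to 46.8), and Hoxa11 was the fifth at 21.8. These 5 genes held 62.9% to 71.6% of the summed length-scaled Hox level of a library, and groups 9 to 13 held 70.8% to 76.7%. With median lengths these shares were 66.4% to 74.5% and 68.1% to 75.2%. The highest member of cluster D was Hoxd9, with 5.11 CPM per kb (3.26 to 6.78; with median lengths, Hoxd8 at 6.25), and that of cluster B was Hoxb9, with 1.74 (0.563 to 3.599). All Hox genes together had 367.4, 388.7 and 433.3 CPM in H3K9M replicates 1, 3 and 5 and 409.8, 470.0 and 440.4 CPM in H3WT replicates 1, 2 and 4, and the groups overlapped.

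**Figure D1:**
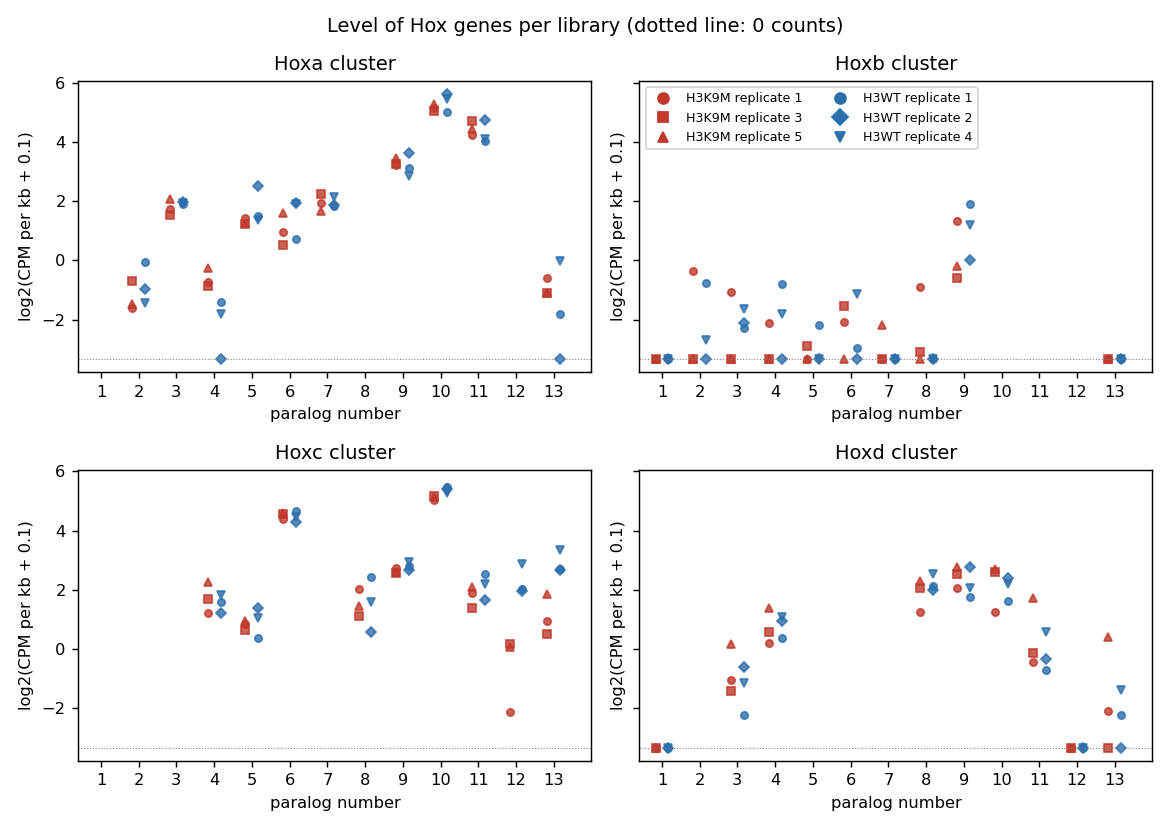
Level of the Hox genes shown in each library, as log2(CPM per kilobase of transcript + 0.1), against paralog number, with 1 panel per cluster; red symbols are the 3 H3K9M libraries, blue the 3 H3WT libraries, and the dotted line is 0 counts. On this scale, with longest transcripts, clusters A and C peak at group 10, cluster B is near 0 apart from Hoxb9, and in cluster C the H3K9M symbols lie below the H3WT symbols at groups 12 and 13.

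Silence was concentrated in cluster B and at the ends of cluster D. Hoxb1, Hoxb13, Hoxd1 and Hoxd12 had 0 counts in all 6 libraries, where a count of 0 allows up to 0.145 to 0.201 CPM, depending on the library (3 counts, counting error only). Hoxb7 never exceeded 3 counts. Another 10 genes exceeded 3 counts in some libraries but not all, and 24 did so in every library. After the filter on low counts 27 Hox genes could be tested, made up of all 11 of cluster A, Hoxb9, all 9 of cluster C and 6 of cluster D. The 12 genes below the filter were Hoxb1 to Hoxb8, Hoxb13, Hoxd1, Hoxd12 and Hoxd13. A gene can pass that filter through 1 group alone, so counts over the 27 describe those genes and not the family.

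Start-site sequences are shown for expressed and silent members, because CpG-rich start regions are typical of Polycomb targets. RefSeq windows (GRCm38.p6, 250 bases before to 50 after a start) matched 22 of the 39 genes, with 24 windows. Shown are Hoxa10 and Hoxa11, the 2 most expressed genes among them when scaled by the longest transcript, and Hoxd12 and Hoxb8, 2 genes at or near 0. With median lengths Hoxa9 ranked above Hoxa11. Each window is printed 5′ to 3′ on the strand of the gene, with capitals marking each CpG.
Hoxa10, chr6:52240805-52241104, minus strand: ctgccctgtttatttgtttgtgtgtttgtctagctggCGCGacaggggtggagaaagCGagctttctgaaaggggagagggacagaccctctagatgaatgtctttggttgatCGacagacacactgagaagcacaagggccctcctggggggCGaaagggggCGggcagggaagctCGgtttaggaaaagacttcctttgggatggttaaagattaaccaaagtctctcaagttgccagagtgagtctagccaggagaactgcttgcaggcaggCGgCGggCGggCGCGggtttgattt
Hoxa11, chr6:52245761-52246060, minus strand: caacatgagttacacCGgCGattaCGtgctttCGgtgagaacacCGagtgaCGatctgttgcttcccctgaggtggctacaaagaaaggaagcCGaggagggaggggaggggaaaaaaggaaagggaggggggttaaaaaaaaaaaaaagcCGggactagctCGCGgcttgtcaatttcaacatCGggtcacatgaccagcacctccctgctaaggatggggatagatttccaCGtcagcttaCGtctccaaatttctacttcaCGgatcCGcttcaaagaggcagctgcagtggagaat
Hoxd12, chr2:74674763-74675062, plus strand: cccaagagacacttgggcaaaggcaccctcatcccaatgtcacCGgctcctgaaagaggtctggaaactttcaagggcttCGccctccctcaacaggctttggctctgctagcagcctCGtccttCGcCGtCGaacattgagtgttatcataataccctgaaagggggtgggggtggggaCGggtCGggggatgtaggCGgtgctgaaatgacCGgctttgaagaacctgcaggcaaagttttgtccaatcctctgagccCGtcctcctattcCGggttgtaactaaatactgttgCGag
Hoxb8, chr11:96281655-96281954, plus strand: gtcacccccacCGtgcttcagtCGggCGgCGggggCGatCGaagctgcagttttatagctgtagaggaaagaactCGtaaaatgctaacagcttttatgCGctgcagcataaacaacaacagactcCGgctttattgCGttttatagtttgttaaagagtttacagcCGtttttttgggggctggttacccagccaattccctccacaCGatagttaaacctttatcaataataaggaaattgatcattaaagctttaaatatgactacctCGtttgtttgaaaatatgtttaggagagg
The printed Hoxa10 window is the upstream one of its 2 (the other holds 21 CpG). It held 12 CpG and the Hoxa11 window 15, against 13 in Hoxd12 and 13 in Hoxb8. The window of the expressed gene Hoxa9, not printed, held 4 CpG. The members below the filter varied widely, since Hoxd1, with 0 counts, held 29 CpG and Hoxd13, with 82 counts over all libraries, 37. The median was 17.5 CpG in the 18 windows of tested genes and 13.5 in the 6 windows of genes below the filter, but the ratio of CpG to the number that base composition predicts ran the other way, at 0.626 and 0.699, and neither was tested. The median over the 24 Hox windows was 14.5 CpG, with a ratio of 0.626, against 7 CpG and a ratio of 0.384 over all 32851 windows. Motifs were searched as plain letters on both strands, each on its own, so matches could overlap. The TATA box TATAAA was in 16.7% of Hox windows and 13.6% of all windows, and CCAAT in 62.5% and 37.4%. The joint PBX and Hox motif TGATTNAT was in 8.33% and 3.22%, and the MEIS motif TGACAG in 8.33% and 19.2%. These are matches of letters, counted without a test.

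No Hox gene passed the test of H3K9M against H3WT after adjustment over all genes. None of the 13761 tested genes of any kind had an adjusted p under 0.05 (0%, quasi-likelihood test of edgeR with Benjamini-Hochberg adjustment), and DESeq2 called 390 (2.84%), including Hoxc12 and Hoxc13. At an unadjusted p under 0.05 stood 3 of the 27 tested Hox genes, against 12.2% of all genes, and all 3 were lower in H3K9M, against 5.77% of all genes in that direction. They were Hoxc13, Hoxc12 and Hoxc10. The 3 H3K9M values lay wholly below the 3 H3WT values in the same 3 genes (8.68% of all genes) and wholly above in 1, Hoxa4 (10.7% of all genes). Counted in either direction, 12.2% of all genes had such a p and 19.4% had groups without overlap, so the Hox counts of 3 and 4 of 27 lie near the background. The median log2 fold change of the tested Hox genes was -0.14 and that of all tested genes -0.003, with 12 Hox genes above 0 (49.6% of all genes) and 15 below (50.4%).

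**Figure D2:**
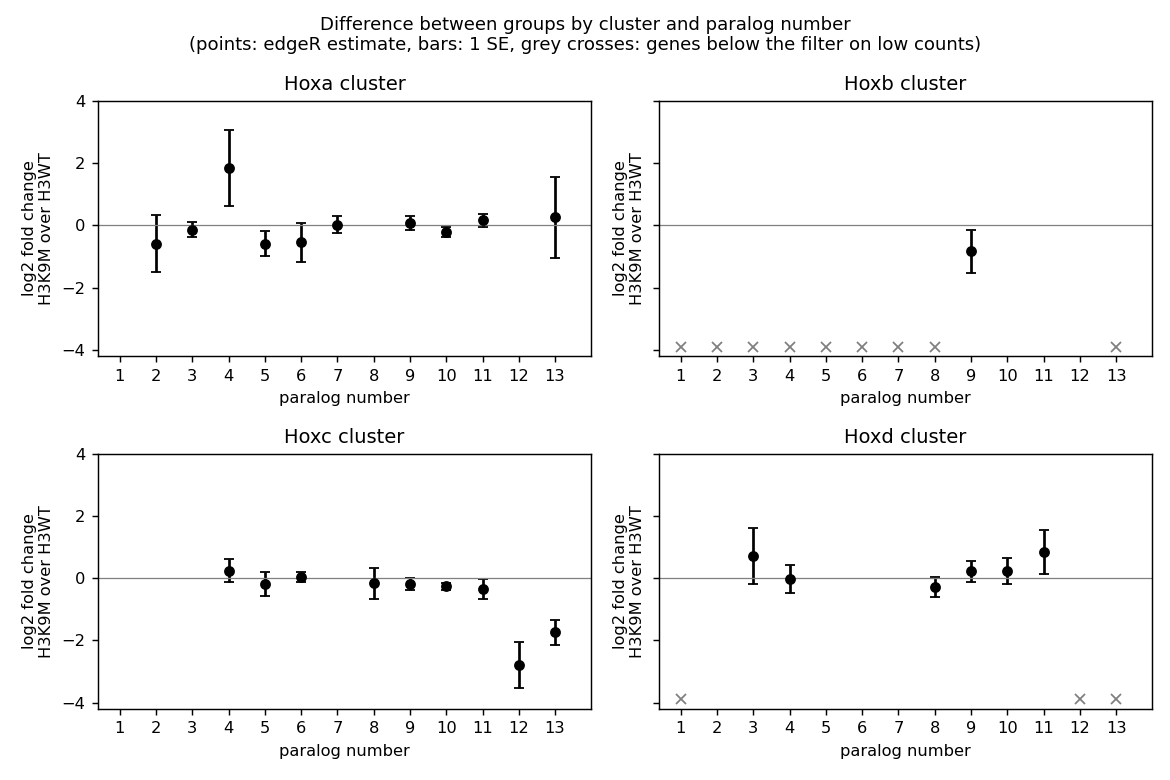
Log2 fold change of H3K9M over H3WT (edgeR) with 1 SE for 26 of the 27 tested Hox genes against paralog number, with 1 panel per cluster; grey crosses at the lower edge mark genes below the filter on low counts. Hoxc12 (-2.79) and Hoxc13 (-1.75) stand lowest, and most other members lie within 1 SE of 0 or close to it.

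The smallest p-values among Hox genes lay at the 5′ end of cluster C. Hoxc13, which is needed for hair and nails, spans chr15:102921103-102928814 on the plus strand (GENCODE M21, GRCm38). Hoxc12, a little-studied gene of the same end, starts 15.65 kb further along, at chr15:102936757-102938609. Hoxc13 had 4.49, 3.29 and 8.78 CPM in H3K9M replicates 1, 3 and 5 and 15.6, 15.4 and 24.7 CPM in H3WT replicates 1, 2 and 4. Each H3K9M library lay below each H3WT library, with the highest value of each group in replicate 5 and replicate 4. The means were 5.52 ± 2.89 and 18.5 ± 5.31 CPM (SD, n = 3 each), 3.36-fold higher in H3WT, with a log2 fold change of -1.75 with SE 0.40 (adjusted p 0.208, edgeR; unadjusted p 0.00235). Hoxc12 had 0.134, 1.06 and 0.969 CPM in H3K9M and 4.10, 3.89 and 7.36 CPM in H3WT, in the same order of replicates. The groups again did not overlap, and H3K9M replicate 1 held only 2 counts of Hoxc12 against 22 and 19 in replicates 3 and 5 and 73, 75 and 125 in H3WT. The means were 0.722 ± 0.511 and 5.12 ± 1.95 CPM (SD, n = 3 each), with a log2 fold change of -2.79 with SE 0.74 (adjusted p 0.239, edgeR; unadjusted p 0.0053). DESeq2 gave -1.76 with an adjusted p of 0.00515 for Hoxc13 and -2.81 with 0.0093 for Hoxc12. Over all alternatives the log2 fold change ran from -2.25 to -1.47 for Hoxc13 (adjusted p 0.00515 to 0.509) and from -3.29 to -2.32 for Hoxc12 (adjusted p 0.0093 to 0.524), and without any single library the sign held. Among the H3K9M libraries, Hoxc13 was lowest in replicate 3, where the muscle gene Myod1 was highest (57.0 CPM), and highest in replicate 5, where Myod1 was lowest (4.29 CPM), while Hoxc12 was lowest in replicate 1 (Myod1 19.5 CPM). The part of muscle markers in either difference was not tested.

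**Figure D3:**
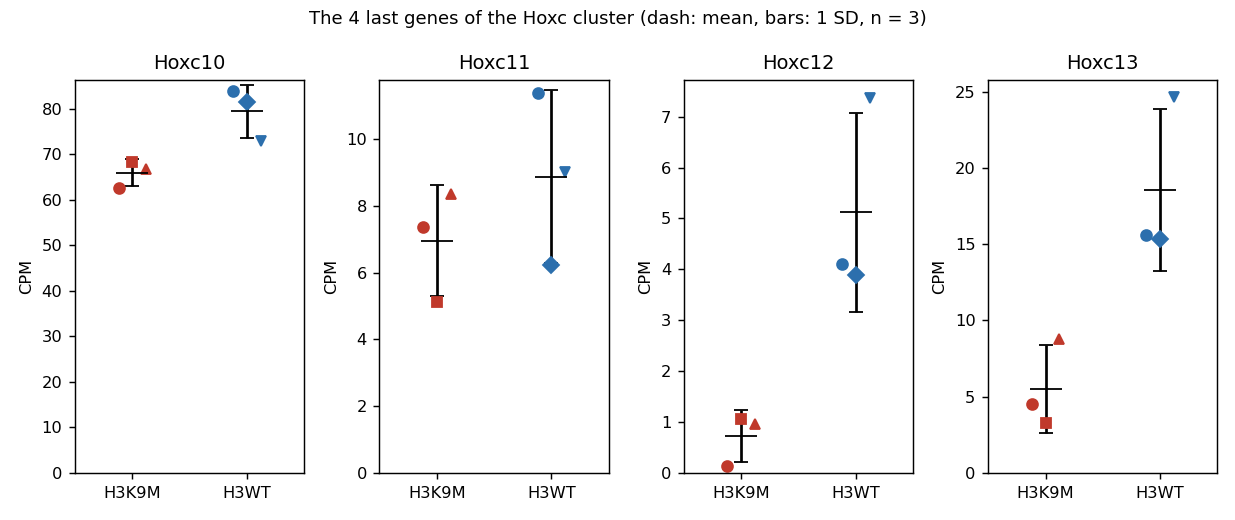
CPM of Hoxc10, Hoxc11, Hoxc12 and Hoxc13 in each library, with linear axes that start at 0; red symbols are H3K9M (circle, square and triangle for replicates 1, 3 and 5), blue are H3WT (circle, diamond and inverted triangle for replicates 1, 2 and 4), dashes are means and bars 1 SD. The groups do not overlap for Hoxc10, Hoxc12 and Hoxc13 and do overlap for Hoxc11.

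The next genes along the cluster had smaller log2 fold changes. Hoxc11 starts 33.32 kb from the Hoxc13 start. It had 7.37, 5.12 and 8.37 CPM in H3K9M and 11.4, 6.23 and 9.01 CPM in H3WT, with overlapping groups (edgeR log2 fold change -0.35 with SE 0.34, adjusted p 0.718). Hoxc10, a hind limb gene that starts at 45.69 kb, had 62.6, 68.4 and 66.8 CPM in H3K9M and 84.0, 81.5 and 73.0 CPM in H3WT. Its groups did not overlap, but the difference was small: 66.0 ± 2.99 against 79.5 ± 5.78 CPM (SD, n = 3 each), a log2 fold change of -0.27 with SE 0.12 (adjusted p 0.41, edgeR; unadjusted p 0.0498). Its unadjusted p ran from 0.0395 to 0.156 over the alternatives. Hoxc9 had 15.7, 13.7 and 14.03 CPM in H3K9M and 16.4, 14.7 and 18.1 CPM in H3WT, and the groups overlapped (log2 fold change -0.18 with SE 0.19). The log2 fold changes of the other 4 tested genes of the cluster were -0.16 for Hoxc8, 0.03 for Hoxc6, -0.19 for Hoxc5 and 0.23 for Hoxc4, each smaller than its SE. The summed cluster C level was 141.5, 143.8 and 157.9 CPM in H3K9M and 192.5, 167.9 and 186.2 CPM in H3WT, and these groups did not overlap. That sum contains Hoxc10, Hoxc12 and Hoxc13, so it is not a separate result and does not show a lower level of the whole cluster. Hotair, the noncoding RNA transcribed from the opposite strand between Hoxc11 and Hoxc12, had 0.335, 1.79 and 0.153 CPM in H3K9M and 1.29, 0.726 and 0.825 CPM in H3WT. Its groups overlapped (log2 fold change -0.31 with SE 1.05), and H3K9M replicate 5 was at 3 counts. Outside the cluster, the 3 nearest tested protein-coding genes on each side, chosen after the Hoxc values were seen, lay 116.4 to 295.6 kb away. They were Atf7, Atp5g2 and Calcoco1 on the Hoxc13 side and Smug1, Cbx5 and Hnrnpa1 on the Hoxc4 side. Their log2 fold changes ran from -0.21 to 0.29, and the groups overlapped in all 6.

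The homeoboxes of these 4 genes are printed because that part of the coding sequence is the most alike between paralogs. They bear only on whether reads could be counted under another of the 4. Homeoboxes of the same paralog number in other clusters are not compared base by base. The 50-base words given after the sequences cover annotated transcripts of all other genes. Each printed homeobox has 180 bases, 5′ to 3′, from GENCODE M21 transcripts. Capitals mark the bases that differ from Hoxc13.
Hoxc13: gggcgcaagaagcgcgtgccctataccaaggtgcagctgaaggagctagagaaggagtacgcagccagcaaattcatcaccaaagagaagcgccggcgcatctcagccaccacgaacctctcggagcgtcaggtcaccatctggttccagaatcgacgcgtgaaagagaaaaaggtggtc
Hoxc12: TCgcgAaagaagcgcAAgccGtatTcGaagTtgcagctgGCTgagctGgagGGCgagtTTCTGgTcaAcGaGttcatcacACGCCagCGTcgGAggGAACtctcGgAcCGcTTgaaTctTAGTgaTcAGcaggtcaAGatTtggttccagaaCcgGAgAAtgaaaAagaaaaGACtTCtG
Hoxc11: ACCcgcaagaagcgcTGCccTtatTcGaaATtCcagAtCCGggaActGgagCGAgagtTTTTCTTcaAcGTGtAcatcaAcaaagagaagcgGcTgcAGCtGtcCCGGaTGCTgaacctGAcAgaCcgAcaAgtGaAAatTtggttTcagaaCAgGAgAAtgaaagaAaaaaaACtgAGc
Hoxc10: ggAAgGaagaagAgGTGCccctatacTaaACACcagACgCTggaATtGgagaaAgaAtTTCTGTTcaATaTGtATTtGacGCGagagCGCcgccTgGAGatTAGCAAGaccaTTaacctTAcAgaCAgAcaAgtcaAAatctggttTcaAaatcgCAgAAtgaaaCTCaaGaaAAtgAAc
Hoxc12 had the same base as Hoxc13 at 112 of 180 positions (62.2%), Hoxc11 at 110 (61.1%) and Hoxc10 at 101 (56.1%). The longest identical stretches were 11, 12 and 8 bases. Over the whole transcripts, 0% of the 50-base words of Hoxc11, Hoxc12 and Hoxc13 occurred in an annotated transcript of another gene. In Hoxc10 it was 6.4%, and 166 of its exon bases are also exon of a long Hoxc5 transcript on the same strand, so the split between Hoxc10 and Hoxc5 counts is uncertain.

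In cluster A the abundant genes of groups 9 to 11 had small log2 fold changes in the fit of all 6 libraries. Hoxa10, a gene of the upper limb segment, had 89.6, 83.3 and 98.9 CPM in H3K9M and 81.9, 124.6 and 110.7 CPM in H3WT (edgeR log2 fold change -0.22 with SE 0.17, adjusted p 0.633). Hoxa11, of the middle segment, had 42.3, 59.7 and 49.0 CPM against 36.9, 60.1 and 38.6 CPM (edgeR log2 fold change 0.15 with SE 0.22, adjusted p 0.835). Hoxa9 had 29.9, 30.6 and 35.0 CPM against 27.7, 39.8 and 22.7 CPM (log2 fold change 0.08 with SE 0.22). The groups overlapped in all 3, and H3WT replicate 2 held the highest value of each. Single libraries moved these values: Hoxa10 ran from -0.38 (unadjusted p 0.0347, edgeR, without H3WT replicate 1) to -0.077 (without H3WT replicate 2), and Hoxa11 from 0.022 (without H3K9M replicate 3) to 0.42 (unadjusted p 0.0491, without H3WT replicate 2). Hoxa13, of the hand and foot, was near the limit of detection, with 20, 18 and 17 counts in H3K9M and 8, 0 and 36 counts in H3WT. Hoxa4, a gene of the neck region, was the only tested member with all H3K9M values above all H3WT values. It had 0.804, 0.725 and 1.17 CPM against 0.449, 0 and 0.295 CPM, from at most 23 counts, with a log2 fold change of 1.84 with SE 1.23 (adjusted p 0.582, edgeR). Hoxa4 passed the filter on low counts through H3K9M alone, with 8, 0 and 5 counts in H3WT, so its lack of overlap cannot be set apart from that filter. Part of its exons is also exon of an antisense gene, so without a stated strand setting the 2 cannot be separated. Hoxa2, Hoxa3, Hoxa5, Hoxa6 and Hoxa7 had log2 fold changes between -0.60 and 0.02 and adjusted p-values of 0.585 to 0.983 (edgeR), and their groups overlapped.

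Cluster B was carried by Hoxb9, which varied widely within each group. Hoxb9, of the lower thoracic region, had 6.23, 1.45 and 1.99 CPM in H3K9M and 9.26, 2.33 and 5.60 CPM in H3WT. H3K9M replicate 1 and H3WT replicates 1 and 4 were high and the other 3 libraries low, so the groups overlapped (edgeR log2 fold change -0.84 with SE 0.69, adjusted p 0.665). The value ran from -1.73 without H3K9M replicate 1 (unadjusted p 0.0391, edgeR) to -0.31 without H3WT replicate 1. Other cluster B genes had far lower counts. Hoxb2, a hindbrain gene, had 32, 0 and 0 counts in H3K9M and 27, 0 and 3 in H3WT. Hoxb4 had 5, 0 and 0 counts against 22, 0 and 8. Hoxb8 was seen almost only in H3K9M replicate 1, with 17 counts against 1 in replicate 3 and 0 in the other 4 libraries. The summed cluster B level was 11.3, 2.08 and 2.14 CPM in H3K9M and 12.7, 2.75 and 7.66 CPM in H3WT, and its log2 ratio of -0.58 ran from -1.87 to -0.008 over single left-out libraries.

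In cluster D, H3K9M replicate 5 held the highest value of several genes, at both ends of the cluster. Hoxd11, the partner of Hoxa11 in the middle segment, had 2.14, 2.71 and 10.7 CPM in H3K9M and 1.74, 2.33 and 4.71 CPM in H3WT. The log2 fold change of 0.83 with SE 0.71 (adjusted p 0.679, edgeR) turned to -0.26 without H3K9M replicate 5. Hoxd13, a digit gene below the filter, had 5, 0 and 60 counts in H3K9M and 5, 0 and 12 in H3WT, so 60 of its 82 counts came from that 1 library, while Hoxd12 between them had none. Hoxd10 had 4.15, 10.8 and 11.7 CPM against 5.45, 9.29 and 8.13 CPM (log2 fold change 0.22 with SE 0.42). Hoxd9 had 8.78, 12.03 and 14.4 CPM against 6.96, 14.5 and 8.78 CPM (log2 fold change 0.22 with SE 0.34). In both, the groups overlapped and replicate 1 was the lowest library of each group. Hoxd8, Hoxd4 and Hoxd3 had log2 fold changes of -0.29, -0.03 and 0.71, each smaller than its SE. H3K9M replicate 5 also held the highest value of Hoxd4 (6.48 CPM) and Hoxd3 (3.06 CPM), but not of Hoxd8 or Hoxd9. Hoxd3 and Hoxd4 share exon bases with each other and with a read-through gene on the same strand, so their counts are uncertain. The summed cluster D level ran from 25.3 to 62.2 CPM in H3K9M and from 29.1 to 43.5 CPM in H3WT.

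**Figure D4:**
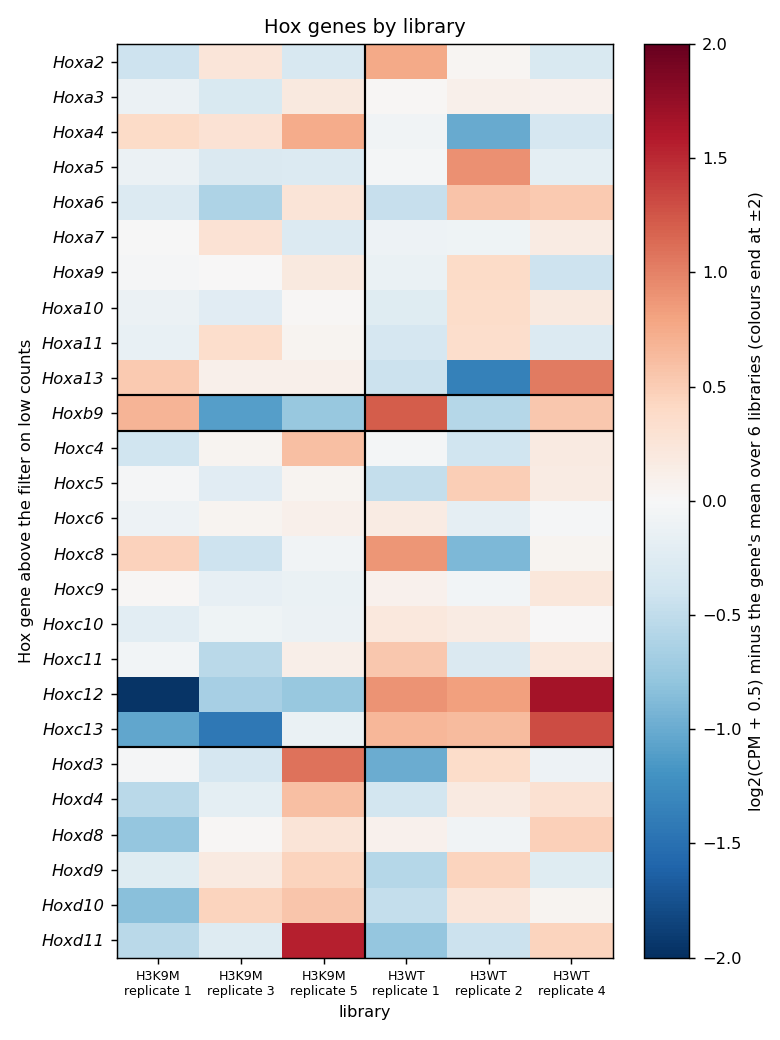
Tested Hox genes (26 of 27) in each library as log2(CPM + 0.5) minus its mean over the 6 libraries; rows are genes by cluster and paralog number, and the vertical line divides the 3 H3K9M from the 3 H3WT libraries. Hoxc12 and Hoxc13 are below their mean in every H3K9M library, Hoxb9 is high in H3K9M replicate 1 and H3WT replicates 1 and 4, and Hoxd11 is highest in H3K9M replicate 5.

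By paralog number, the summed length-scaled levels of the groups were furthest apart at 12 and 13. Group 12, which here is Hoxc12 alone because Hoxd12 was silent, had 0.130, 1.03 and 0.940 CPM per kb in H3K9M and 3.98, 3.77 and 7.14 in H3WT. Group 13, mostly Hoxc13, had 2.52, 1.70 and 5.16 CPM per kb against 6.64, 6.24 and 11.2, and the groups did not overlap. Group 10, the largest, had 70.0, 74.3 and 80.0 CPM per kb against 78.9, 96.4 and 85.9, and group 11 had 22.8, 29.5 and 28.7 against 22.3, 30.1 and 22.8, both with overlapping groups. The log2 ratios of the group means were -2.83 for group 12, -1.36 for group 13, -0.22 for group 10 and 0.11 for group 11. These totals are descriptions and were not tested, and the exact permutation test of 3 against 3 libraries cannot give a two-sided p below 0.1.

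Noncoding genes of the clusters were mostly silent. Of 9 such genes in the table, Haglr, Hottip, Hoxaas3 and Hoxb5os had 0 counts in every library and 3 could be tested. Hotairm1, at the 3′ end of cluster A, had 4.09, 2.996 and 2.45 CPM in H3K9M and 1.52, 1.14 and 2.24 CPM in H3WT. Its groups did not overlap (edgeR log2 fold change 0.96 with SE 0.54, adjusted p 0.507), and overlapping annotation makes its count uncertain. Hoxa11os, opposite Hoxa11, had 5.63, 14.6 and 9.69 CPM against 6.91, 15.8 and 7.48 CPM, high in H3K9M replicate 3 and H3WT replicate 2 as Hoxa11 was. The pair shares 800 exon bases on opposite strands, and reads of the 2 cannot be told apart without strand.

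Genes that work with Hox proteins or act on them were read from the same fit, and none passed an adjusted p of 0.05 there. The TALE homeodomain cofactors Meis, Pbx and Pknox bind DNA together with Hox proteins. All 9 were tested, 4 with a log2 fold change above 0 and 5 below (49.6% and 50.4% of all genes), and 2 had an unadjusted p under 0.05 (12.2% of all genes). Meis3 had 21.7, 24.0 and 21.1 CPM in H3K9M against 28.4, 29.6 and 27.5 CPM in H3WT, without overlap (edgeR log2 fold change -0.35 with SE 0.15, adjusted p 0.41). Of the 20 Polycomb and Trithorax regulators, which keep Hox genes off or on, 7 had a log2 fold change above 0 and 13 below (49.6% and 50.4% of all genes), and 3 had an unadjusted p under 0.05, all lower, near the 12.2% of all genes with such a p in either direction (5.77% lower). Men1, which encodes the Trithorax partner menin, had 61.6, 57.0 and 55.2 CPM against 78.5, 74.9 and 75.9 CPM (edgeR log2 fold change -0.40 with SE 0.11, adjusted p 0.252). Kmt2b, a Trithorax methyltransferase, had 53.1, 46.7 and 75.1 CPM against 80.0, 77.7 and 78.4 CPM, without overlap (log2 fold change -0.43 with SE 0.18). The 3 caudal genes, Cdx1, Cdx2 and Cdx4, were at or near 0 and could not be tested.

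Among 10 genes listed as known Hox targets, 9 were tested. Of these, 8 had a log2 fold change below 0 and 1 above, against 50.4% of all genes below 0, and 2 had an unadjusted p under 0.05 (12.2% of all genes). Whether Hox proteins act on these genes in the cells used here was not tested. Itga8, an integrin gene known downstream of group 11 in kidney, had 6.10, 2.71 and 1.79 CPM in H3K9M and 18.02, 5.03 and 22.0 CPM in H3WT. H3WT replicate 2 lay among the H3K9M values (edgeR log2 fold change -2.10 with SE 0.65, adjusted p 0.286). DESeq2 gave Itga8 an adjusted p of 0.0282. Shox2, a gene of the upper limb segment, had 62.4, 48.8 and 51.4 CPM against 77.4, 80.9 and 59.5 CPM (log2 fold change -0.42 with SE 0.16). Of the limb type genes, 3 were tested. Tbx5 had a log2 fold change of -0.45 with SE 0.19 (unadjusted p 0.0488, edgeR), Tbx4 of -0.29 (SE 0.13) and Pitx1 of -0.12 (SE 0.17). Over all genes, 12.2% had an unadjusted p under 0.05 (5.77% lower in H3K9M). For Tbx4 and Tbx5 the groups did not overlap, as in 19.4% of all genes (8.68% lower in H3K9M).

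Retinoic acid is a classic inducer of 3′ Hox genes. Of 14 genes that bind, make, break down or sense it, 11 were tested, and 4 had an unadjusted p under 0.05 (12.2% of all genes), 2 higher (6.42%) and 2 lower (5.77%). Among the 3 with the smallest p-values, Crabp2, a retinoic acid carrier, had 80.7, 130.6 and 81.7 CPM in H3K9M and 22.8, 22.7 and 19.1 CPM in H3WT (edgeR log2 fold change 2.18 with SE 0.22, adjusted p 0.0987). Cyp26b1, which degrades retinoic acid, had 24.7, 37.3 and 24.6 CPM against 89.0, 94.6 and 146.7 CPM (edgeR log2 fold change -1.93 with SE 0.25, adjusted p 0.147). DESeq2 called both of them, as did edgeR with all genes with a count tested and edgeR without H3WT replicate 2, while limma-voom did not. Over all alternatives the adjusted p ran from 4.38e-15 to 0.486 for Crabp2 and from 1.78e-09 to 0.486 for Cyp26b1. Rxra, a receptor, had 124.5, 118.1 and 137.4 CPM against 162.6, 172.5 and 173.8 CPM (edgeR log2 fold change -0.42 with SE 0.11, adjusted p 0.239). The groups did not overlap in any of these 3 genes, which were picked by their p-values (19.4% of all genes had groups without overlap). Beside them, 7 Hox genes of groups 1 to 4 were tested, 4 with a log2 fold change above 0 and 3 below (49.6% and 50.4% of all genes). Their median was 0.23, and 0 had an unadjusted p under 0.05 (edgeR, 12.2% of all genes). They ranged from Hoxa2 at -0.60 with SE 0.91, with overlapping groups, to Hoxa4 at 1.84 with SE 1.23, without overlap. Both had low counts. A link to the retinoid genes was not tested. Rarb, a receptor gene that is itself a known target, had at most 1.57 CPM and was not tested.

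**Figure D5:**
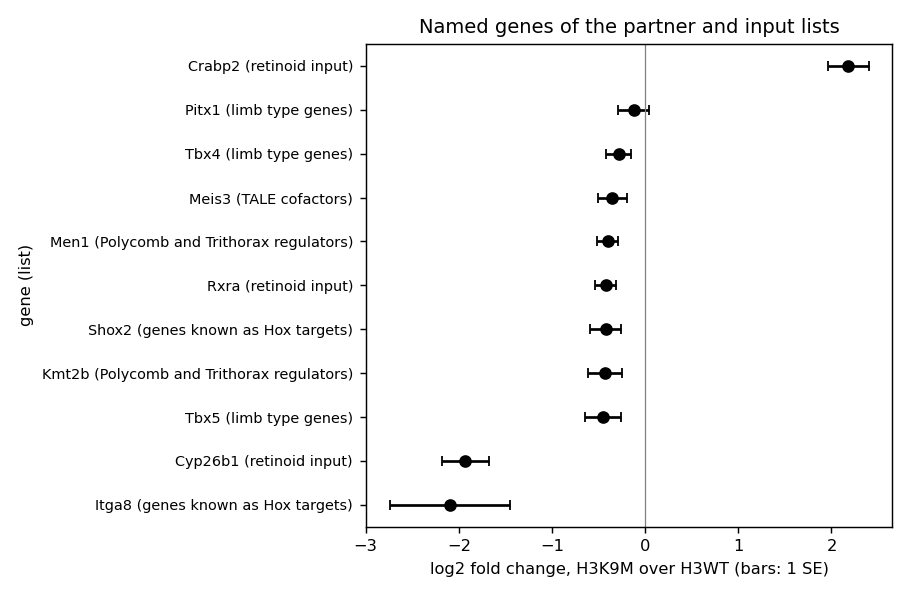
Log2 fold change of H3K9M over H3WT with 1 SE (edgeR) for named genes of the lists of Hox cofactors, chromatin regulators, targets, retinoid genes and limb type genes. Crabp2 (2.18) is the only one above 0, and Itga8 (-2.10) and Cyp26b1 (-1.93) lie lowest.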

How the data were processed

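Polyadenylated RNA of 6 samples was made into libraries with a Tecan mRNA kit, as the labels' protocols state. The deposited table holds raw counts per gene symbol, which the authors did not normalize, as judged from whole numbers with differing totals. The submitters' processing notes name HISAT2, featureCounts, DESeq2 and mm10, and versions and strand setting are not given in the sources used here. All rows carried a symbol.

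Counts were fitted in R 4.3.3 with edgeR 4.0.16 (filterByExpr, TMM, robust quasi-likelihood, Benjamini-Hochberg over 13761 genes, threshold 0.05). SE is the size of the log2 fold change over the square root of F. Alternatives were DESeq2 1.42.0, limma-voom (limma 3.58.1), 2 other scalings, 2 other filters and leaving out libraries. The scripts were tested on simulated data. Positions and lengths came from GENCODE M21 (GRCm38, the assembly of mm10). Library totals were 15113675 to 19606082 counts. Replicate numbers came from the titles.

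Values in every library are given for members past the threshold or at an unadjusted p under 0.05, members whose groups did not overlap, the highest member per length of each cluster and tested members of groups 9 to 13. From the other lists, at most the 3 smallest p-values under 0.05 are named, with Pitx1, Tbx4, Tbx5 and members whose sign turned. A few untested members and the flanking genes were added after their values were seen. Some genes are not reported here one by one, and counts over lists include them. The members and lists were chosen with earlier results of these data known.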

Additional observations from a re-analysis of the deposited data

How the results depend on the processing

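The count of changed genes over all genes was 0 in the reported fit. It was 390 with DESeq2, 36 when all genes with a count were tested, and 0 to 91 over the fits that left out 1 library (91 without H3WT replicate 2, 2 without H3K9M replicate 3). Leaving out H3K9M replicate 3 and H3WT replicate 2 together, a choice made after the data were seen, gave 302. The count of changed Hox genes was 0 and became 2 only with DESeq2 (Hoxc12 and Hoxc13). The causes were not tested. The number of Hox genes at an unadjusted p under 0.05 was 2 or 3 in all 13 alternatives. Between 22 and 35 Hox genes were tested in these fits, and 8.48% to 18.4% of all tested genes had such a p. Hoxc13 was among the Hox genes each time, while the others changed. Hoxb9, Hoxa10 and Hoxa11 (higher in H3K9M) each entered only in a fit that left out 1 library. Hoxc12 dropped out of the fit that asked for 10 counts in every library, since H3K9M replicate 1 held 2.

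The sign of the log2 fold change held in every alternative run for 14 of the 26 tested Hox genes shown, Hoxc9 to Hoxc13 among them. With library size alone Hoxd4 turned to 0.018. Over the fits without 1 library the values ran from -0.47 to 0.21 for Hoxd4, -0.52 to 0.41 for Hoxc8, -0.13 to 0.17 for Hoxa7, -0.078 to 0.46 for Hoxc4, -0.26 to 1.35 for Hoxd11, -0.011 to 0.56 for Hoxd10, -0.051 to 1.27 for Hoxd3, -0.31 to 2.17 for Hoxa13, -0.037 to 0.13 for Hoxc6, -0.44 to 0.078 for Hoxc5 and -0.084 to 0.35 for Hoxa9. Without the 2 libraries together, values turned to -0.056 (Hoxc6), 0.16 (Hoxc5), 0.17 (Hoxd4), 0.0061 (Hoxa3), -0.17 (Hoxa7), -0.21 (Hoxa13) and 0.067 (Pitx1). The summed cluster C level stayed lower in H3K9M in all 8 alternatives (log2 ratio -0.35 to -0.24), and group 13 in all 9 (-1.92 to -1.04). Both sums contain Hoxc13, and that of cluster C also Hoxc10 and Hoxc12, so they are not separate from those genes. No paired analysis was possible because the groups share only replicate number 1.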
